A study of Mus musculus with 12 samples.

Results

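Thioglycolate-elicited mouse peritoneal macrophages (PMφs) that had received both oxidized low-density lipoprotein (oxLDL) and lipopolysaccharide (LPS) were compared with PMφs that had received neither. The comparison took 3 libraries of oxLDL+LPS PMφs and 3 of control PMφs, and its members were the 12908 genes, of 43278 in the table, with a value of at least 10 in 3 or more of these 6 libraries. The whole series held 12 RNA-seq libraries, 3 from each of 4 groups. Control PMφs received no oxLDL and no LPS, oxLDL PMφs had 24 h with 100 µg/ml of medium-oxidized human LDL, LPS PMφs received ultrapure LPS at 10 ng/ml, and oxLDL+LPS PMφs had the oxLDL culture first and LPS afterwards. How long LPS was present in these libraries is not given in the sources used here. The cells of every group were wild type, from male and female C57BL/6J littermates aged 8 to 12 weeks, and were lavaged on day 4 after 1 ml of 4% thioglycolate, plated in DMEM with 10% FBS and used as the adherent fraction after 18 h. By the paper's methods, cells of up to 10 mice were pooled and divided among the groups, so a library is a pool of animals and not 1 animal. Replicate 1, however, held another mix of male and female cells with LPS than without it. The p-values measure the spread between these libraries.

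LPS is sensed by Toll-like receptor 4 with its co-receptor CD14, and the signal runs through one adaptor branch to NF-kB and mitogen-activated protein kinases and through another to interferon regulatory factors and type I interferon. OxLDL enters macrophages through scavenger receptors, its cholesterol is released in lysosomes, and the sterol supply is sensed by SREBP2, which drives the genes of cholesterol synthesis when sterols are scarce, and by liver X receptors, which drive sterol export. Oxidized lipids also act on NRF2, a factor that drives genes of glutathione, thioredoxin and NADPH metabolism, and on PPARγ, a nuclear receptor for fatty acids.

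Values are normalized counts, that is, read counts that the authors divided by a factor per library and rounded. They summed to 17152972 to 17709731 in control libraries and to 22071853 to 23346854 in oxLDL+LPS libraries, while the reads implied by the spacing of the values were 18617639 to 21803486 and 20253951 to 20701189. All 10 macrophage markers were tested, and their summed level was 243185 to 279310 in control and 275176 to 315712 in oxLDL+LPS libraries. B cell markers summed to 1513 to 2326 and 1009 to 1389, eosinophil markers to 320 to 388 and 60 to 109, mast cell markers to 57 to 64 and 33 to 118, and dendritic cell markers to 57 to 103 and 82 to 135. A single marker made up most of the B cell and eosinophil sums in control libraries, with means of 1644 and 349. Of 6 B cell markers tested, Cd22 was called lower, Ms4a1 higher and 4 were not called, and Siglecf was the only eosinophil marker tested. Markers of large resident peritoneal macrophages summed to 12441 to 26032 and 15026 to 33145, and those of mesothelial cells and fibroblasts to 5826 to 25142 and 5438 to 18553. Neutrophil markers summed to 75 to 77 and 132 to 258, and T and NK cell markers to 30 to 36 and 87 to 204, of which Lck made up 18, 18 and 16 against 79, 200 and 112 and the other 8 markers, none of them tested, 12, 18 and 15 against 8, 4 and 2. Transcripts of the Y chromosome summed to 3138, 0 and 1766 in control replicates 1 to 3 and to 1004, 0 and 1783 in oxLDL+LPS replicates 1 to 3, and Xist, which is made from the inactive X chromosome, read 1, 6730 and 3538 against 3812, 6085 and 3676. Replicate 1 thus held another mix of male and female cells in the 2 groups. The part of these cell and sex differences in the results was not tested, and fewer cells of a type and less RNA per cell cannot be told apart.

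Most genes tested differed between the doubly treated and the untreated cell. Of the 12908 genes, 7382 passed the test (57.2%; limma, Benjamini-Hochberg adjusted p under 0.1), of which 3773 were higher (29.2%) and 3609 lower (28.0%) in oxLDL+LPS PMφs. The groups did not overlap for 7694 genes (59.6%). The split rests on the scaling: 51.1% of called genes were higher in the deposited values, whose median log2 difference was -0.01, against 35.2% with upper quartiles made equal (median -0.22) and 24.4% with library totals made equal (median -0.40; 2127 higher and 6585 lower). On the log2 scale a difference of 1 is a 2-fold change. The median called rise was 0.81 and the median called fall -0.86, but rises outnumbered falls among the largest changes. At a size of at least 1 there were 1575 rises and 1494 falls, at least 3 there were 424 and 114, and at least 5 there were 153 and 5. The 153 genes that rose by at least 5 made up 0.0678 to 0.0766% of the values in control libraries and 6.01 to 7.98% in oxLDL+LPS libraries. The 1494 genes that fell by at least 1 went from 8.85 to 9.46% of the values to 2.16 to 2.68%.

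The largest rises were inflammatory and interferon-induced genes. Il1b (chr2:129364570-129371139, minus strand, GRCm38), the cytokine interleukin-1β, read 20, 11 and 7 in control and 7630, 44508 and 21943 in oxLDL+LPS libraries, a log2 difference of 10.60 (SE 0.63, limma adjusted p = 1.42e-05). Cxcl3, a neutrophil-attracting chemokine, went from 2, 7 and 2 to 4735, 5291 and 11611, and Nos2, inducible nitric oxide synthase, from 2, 8 and 2 to 2703, 7805 and 4004. At control values this low the fitted difference (10.64 and 9.99) moves with the pseudocount of 1. Irg1, which makes itaconate, read 88, 114 and 69 against 117530, 117800 and 145830 (10.46, SE 0.18). Gbp5, a guanylate-binding protein that promotes inflammasome assembly, read 29, 37 and 32 against 34658, 50741 and 59850 (10.46, SE 0.20). The other named rises were Cxcl10 (10.27), Cxcl2 (9.99), Ccl5 (9.99), Mx1 (9.92), Pydc4 (9.92) and Ifit2 (9.77), together with Il12b, the p40 subunit of interleukin-12, at 1, 2 and 1 against 563, 8009 and 3757, for which no fold is given. The rule that named these 12 genes admits only groups that do not overlap, so every oxLDL+LPS library lies above every control library by construction.

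**Figure D1:**
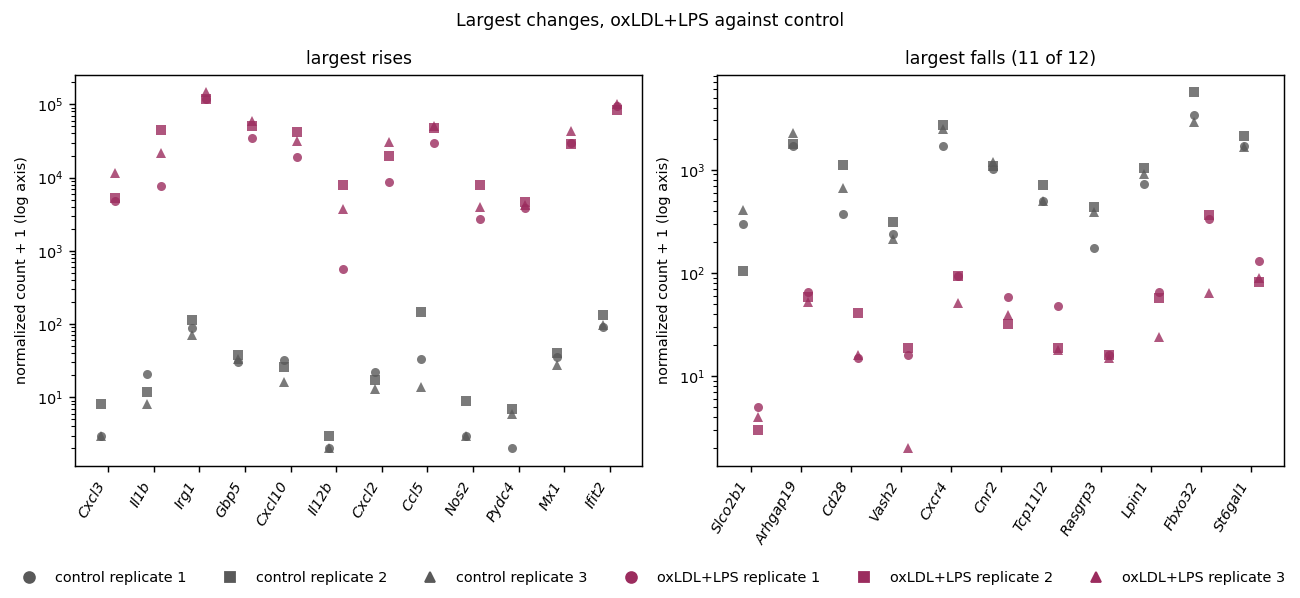
Normalized count plus 1 on a log axis for the 12 named genes with the largest rise (left) and 11 of the 12 with the largest fall (right), 1 point per library, with control in grey, oxLDL+LPS in purple and a symbol per replicate. The naming rule takes only genes whose control and oxLDL+LPS libraries do not overlap, as for Il1b with 7 to 20 in control and 7630 to 44508 in oxLDL+LPS libraries.

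The largest falls were in genes of varied function. Slco2b1 (chr7:99657804-99711340, minus strand), an organic anion uptake transporter, read 294, 104 and 404 in control and 4, 2 and 3 in oxLDL+LPS libraries, a log2 difference of -5.89 (SE 0.51, adjusted p = 8.69e-05). Cxcr4, the receptor for CXCL12, read 1682, 2697 and 2496 against 92, 93 and 50 (-4.88, SE 0.28). Cnr2, the cannabinoid receptor of immune cells, read 1017, 1075 and 1181 against 58, 31 and 38 (-4.70, SE 0.23). Cd28 (373, 1102 and 670 against 14, 40 and 15), a receptor best known from T cells, fell by 4.93 on the log2 scale. Of the T and NK cell markers Lck was higher in oxLDL+LPS libraries and the sum of the other 8 was lower (2 to 8 against 12 to 18), and the part of such cells in the fall of Cd28 was not tested. Arhgap19 (1702, 1780 and 2283 against 65, 58 and 51), a GTPase-activating protein, fell by 5.02. Lpin1, a phosphatidate phosphatase of lipid synthesis (726, 1042 and 913 against 65, 56 and 23), fell by 4.30, and St6gal1, a sialyltransferase, fell by 4.21. Vash2 (-4.89), Tcp11l2 (-4.46), Rasgrp3 (-4.31) and Fbxo32 (-4.25) fell as well.

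Defence genes rose together. All 16 tested genes of NF-kB subunits, inhibitors and feedback rose, with a median log2 difference of 2.62 against -0.01 over all genes. Traf1 (5.21), Nfkbie (5.19), Nfkbiz (4.93) and Nfkbia (4.79), the inhibitor IκBα, led them. Of the inflammatory cytokines 19 of 20 tested rose, with a median of 5.38, or 3.46 with a pseudocount of 5. Some of them reached a value of 10 only in oxLDL+LPS libraries, so their rise is partly built into the choice of genes. Of the 10 cytokines with at least 10 in all 6 libraries, 9 rose, with a median of 3.34. Tnf, the cytokine tumour necrosis factor, read 68, 61 and 63 against 20752, 45676 and 53561, a difference of 9.16 (SE 0.32, adjusted p = 1.19e-06). Il6 was near 0 in control (2, 1 and 0) and read 261, 4786 and 2683 in oxLDL+LPS libraries, and Il12a read 0, 0 and 1 against 290, 1964 and 2040. The lowest oxLDL+LPS library of Il6 and Il12a was replicate 1, as for Il1b and Il12b. Il1a (5.90), Il27 (7.30), Il15 (3.54) and Il18 (3.13) rose as well.

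Of 22 chemokine genes tested, 19 rose and 1, Cxcl14, fell (-1.91), with a median of 4.79. Of the 15 chemokine genes with at least 10 in all 6 libraries, 12 rose and 1 fell, with a median of 4.74. Ccl3 rose by 5.33 (SE 0.60), Ccl4 by 5.15, Ccl9 by 4.85 and Ccl22 by 4.71. Ccl8 read 14, 28 and 14 in control and 14, 26 and 15 in oxLDL+LPS libraries. Its difference of -0.00 (adjusted p = 0.996) changed sign with single libraries left out (0.11 to 0.31 without control replicate 2 or oxLDL+LPS replicate 1 or 3). Cxcl10 attracts T cells and is a textbook target of both NF-kB and interferon factors. The 250 bases before its start (RefSeq, GRCm38.p6, chr5:92348890-92349139, minus strand) are shown because they hold both kinds of motif, with capitals for the 2 matches to the NF-kB letters, GGGA followed after 2 bases by TTCC or TCCC, on either strand.
Cxcl10: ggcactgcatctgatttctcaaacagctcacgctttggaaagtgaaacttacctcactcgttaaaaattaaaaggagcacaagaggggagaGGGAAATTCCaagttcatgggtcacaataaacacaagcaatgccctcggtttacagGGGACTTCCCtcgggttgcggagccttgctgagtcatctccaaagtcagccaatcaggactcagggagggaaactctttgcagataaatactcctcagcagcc
Such a match stood in 4 of the 15 chemokine promoters at hand (26.7%) and 5 of 13 of the NF-kB genes (38.5%), against 1.71% of 27025 promoters of the same length. The Cxcl10 stretch also holds 1 match to the interferon-stimulated response element, which shares no base with the NF-kB matches. A match is a description of letters and not a measured binding site.

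All 32 interferon-stimulated antiviral genes tested rose, with a median of 5.46, and so did all 15 guanylate-binding and immunity-related GTPases, with a median of 6.73. With at least 10 required in all 6 libraries, all 29 and all 11 that remained rose, with medians of 5.35 and 6.73. Mx1, a GTPase gene of the antiviral list, read 35, 39 and 27 against 29951, 28641 and 42833 (9.92, SE 0.19). Ifit1 (chr19:34640871-34650009, plus strand), which binds RNA that lacks a host cap, read 50, 70 and 63 against 47851, 44156 and 53707 (9.62, SE 0.14). Gbp5, Iigp1 (8.76), Tgtp2 (8.23) and Gbp6 (7.68), of families that attack the vacuoles of intracellular microbes, led the GTPases. Ifit, Gbp and Tgtp genes have near copies, so how reads were split among them is uncertain. The Ifit1 promoter (RefSeq, GRCm38.p6, chr19:34640639-34640888, plus strand) is shown as an example of the motif that stood most often in this list. Capitals mark its 2 matches to the interferon-stimulated response element, TTTC followed after 2 bases by TTTC, searched on both strands.
Ifit1: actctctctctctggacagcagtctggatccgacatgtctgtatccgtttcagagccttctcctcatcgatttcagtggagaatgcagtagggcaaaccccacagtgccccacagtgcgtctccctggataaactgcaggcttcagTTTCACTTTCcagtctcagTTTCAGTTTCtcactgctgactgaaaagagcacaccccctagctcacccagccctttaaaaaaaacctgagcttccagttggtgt
The motif stood in 10 of the 23 interferon-stimulated promoters at hand (43.5%) and in 24 of 100 (24.0%) for the genes that rose by at least 5, against 3.04% of all promoters.

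All 17 genes of MHC class I and the immunoproteasome rose (median 2.66), led by Nlrc5, the transactivator of class I genes (4.32), Tap1, the peptide transporter (4.22), Psme2 (3.22) and Psmb10 (3.17). Of 8 class II presentation genes, 3 rose (37.5%, near the 29.2% of all genes tested) and 5 did not pass. The median of the 8 was 0.34, or -0.05 with equal library totals. H2-Ab1 rose by 0.69 (adjusted p = 0.0799), and the number of rises was 1 without control replicate 1 or 2, 5 without control replicate 3, and 2 without any 1 of the oxLDL+LPS libraries. Of 12 costimulatory and checkpoint ligands, 9 rose, among them Cd40 (39, 41 and 37 against 8754, 14085 and 15312; 8.27, SE 0.20), Tnfsf9 (5.94) and Icosl (4.99). Tnfsf4 read 1 in each control library and 27, 49 and 26 in oxLDL+LPS libraries. Cd276 (-0.78) and the gene listed as 4632428N05Rik, the checkpoint receptor VISTA (10026, 10625 and 10507 against 2218, 2217 and 2332; -2.20), fell, with 1 fall without control replicate 1 or 3 or oxLDL+LPS replicate 2.

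The receptors that sense microbes and chemoattractants changed in both directions. Of 24 Toll-like receptor and co-receptor genes, 16 rose (66.7%) and 4 fell (16.7%), against 29.2% and 28.0% of all genes tested. Their median of 0.68 was 0.28 with equal totals, with 12 rises and 5 falls. There were 2 falls without control replicate 3 and 2 without oxLDL+LPS replicate 3. Tlr2 rose by 5.05, Tlr3 by 3.83, Cd14 by 3.43 and Tlr1 by 2.98. Tlr4, the receptor for LPS itself, fell by 0.32 (SE 0.10, adjusted p = 0.0352), and its adaptors and kinases Irak1 (-0.41), Ticam1 (-0.32) and Irak4 (-0.24) fell by similar amounts. Of 20 chemoattractant receptors, 7 rose and 10 fell (median -0.69), or 4 and 6 of the 12 with at least 10 in all 6 libraries. The formyl peptide receptors, which sense bacterial N-formyl peptides, came up from near 0: Fpr2 read 3, 4 and 2 against 2036, 1299 and 2152, and Fpr1 read 4, 1 and 1 against 1955, 450 and 1517. Gpr183, which senses oxysterols, read 184, 169 and 157 against 1, 3 and 6 (-5.48, SE 0.45), and Cx3cr1, the fractalkine receptor, fell by 4.32. Cxcr2, a neutrophil marker too, went from 38, 43 and 38 to 0, 3 and 0, while the neutrophil gene S100a8 went from 31, 34 and 37 to 134, 118 and 248.

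**Figure D2:**
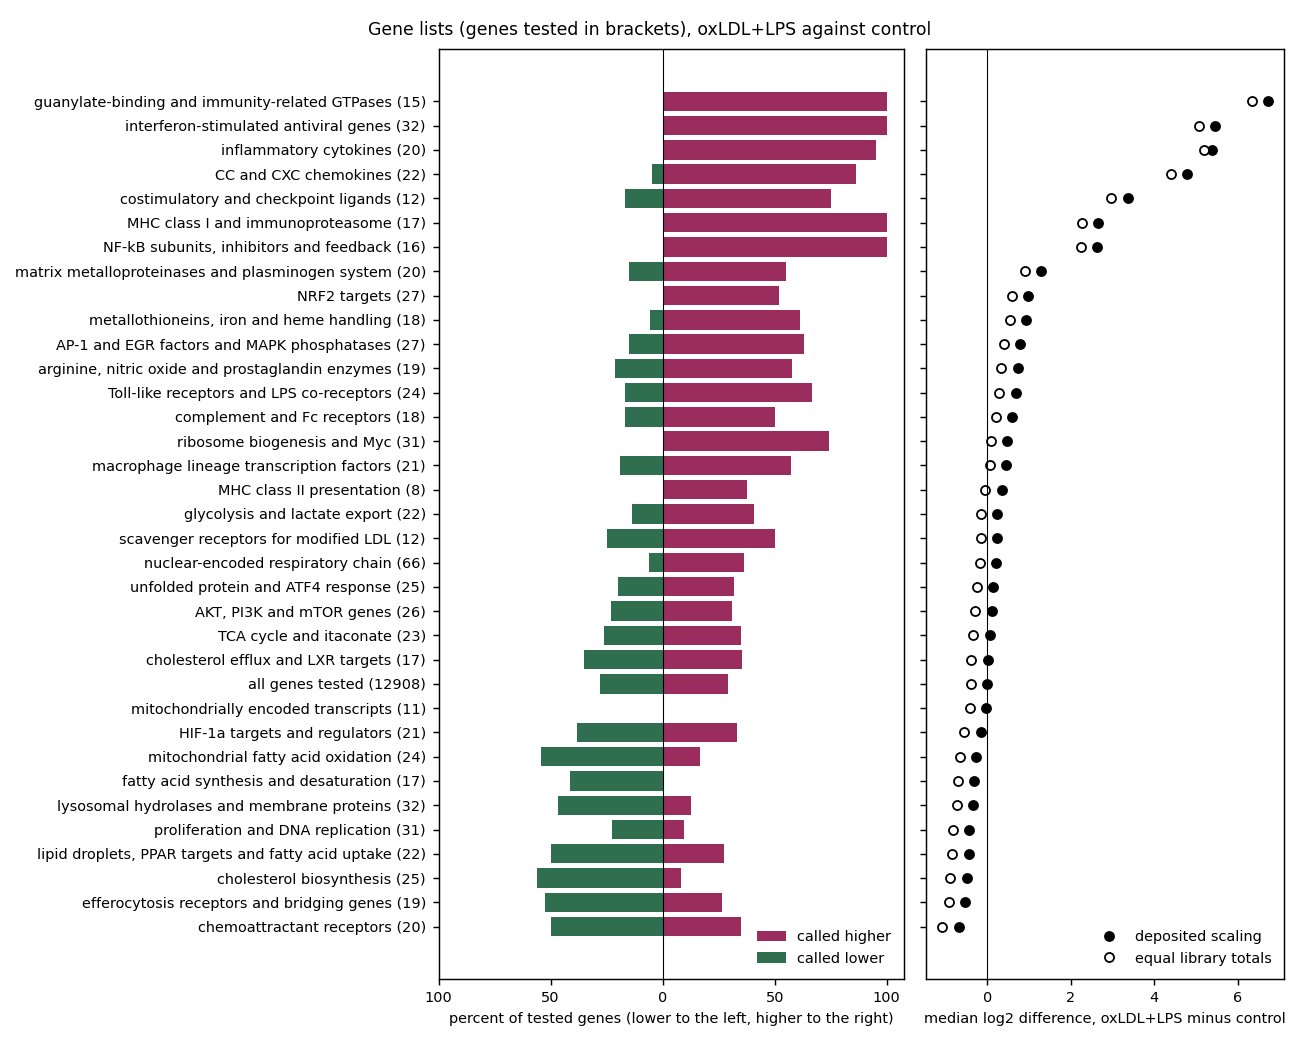
Share of tested genes called higher or lower (left, percent) and median log2 difference, oxLDL+LPS minus control (right), for each gene list with its number of tested genes in brackets, with filled points for the deposited scaling and open points for equal library totals. The lists from GTPases (6.73) to NF-kB genes (2.62) stay above 2 under both scalings, while medians near 0 such as that of glycolysis (0.23 and -0.16) or the respiratory chain (0.21 and -0.18) change sign.

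The net change is the arithmetic sum of the LPS effect over both oxLDL states and the oxLDL effect over both LPS states, estimated from all 12 libraries, so the 2 effects describe how the net arose and are not independent evidence for it. The LPS effect was called for 9188 genes (71.2%). The oxLDL effect was called for 35 genes (0.271%), 4 higher and 31 lower, with 1221 at an unadjusted p under 0.05. When the pool number within each LPS state was added as a block, it was called for 1200 genes (9.30%), 426 higher and 774 lower. Without the block, leaving out 1 library gave 12 to 24 genes, except for LPS replicate 2 (72) and oxLDL+LPS replicate 2 (242). Whether the 2 effects depend on each other was tested by their interaction, which limma called for 0 genes, with 401 at an unadjusted p under 0.05 and 45 called with the pool as a random block.

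There were 19 genes that LPS raised and oxLDL lowered (0.147% of genes tested; 481, or 3.73%, with the block). Of the 19 genes, 11 belonged to the cholesterol biosynthesis list, as did 12 of the 481, and that list held 25 of the 12908 genes tested. The 481 also held 14 of 32 interferon-stimulated antiviral genes, 9 of 16 NF-kB genes, 6 of 15 GTPases and 5 of 20 inflammatory cytokines. The net of the 19 genes was higher than control for 7, lower for 3 and not called for 9. Their median net was 0.10, from a median LPS effect of 1.06 and a median oxLDL effect of -0.93. The number depends on single libraries. It was 6 to 12 without any 1 of 10 libraries, 44 without LPS replicate 2 and 73 without oxLDL+LPS replicate 2. With equal totals it was 11.

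Insig1 (chr5:28071363-28078662, plus strand), which holds the SREBP complex in the endoplasmic reticulum, was near its control level in the doubly treated cells. It read 1319, 1380 and 1566 in control, 682, 862 and 567 with oxLDL, 2771, 2647 and 3319 with LPS and 1364, 1912 and 1210 with both. Its net was 0.05 (SE 0.17, adjusted p = 0.837), from 1.06 and -1.01, and it was below 0 with equal totals (-0.34) or equal upper quartiles (-0.16).

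In some enzymes of the route oxLDL outweighed LPS. Msmo1, a sterol demethylase, read 2236, 1845 and 2503 in control, 3306, 2158 and 3600 with LPS and 1724, 1401 and 1300 with both, a net of -0.57 (adjusted p = 0.0148). Fdps had a net of -0.50 that was called (adjusted p = 0.0577) but not without control replicate 1 (0.177) or 3 (0.106) or oxLDL+LPS replicate 3 (0.134). Idi1, the isomerase of isoprenoid units, read 259, 226 and 268 in control, 123, 109 and 76 with oxLDL, 725, 320 and 770 with LPS and 233, 174 and 202 with both. The nets of Idi1 (-0.31), Cyp51 (-0.19), Hmgcs1 (-0.21), Fdft1 (0.18) and Srebf2, the regulator itself (0.13), were not called, although Idi1 was with the replicate block (adjusted p = 0.0654). The last 2 fell below 0 with equal totals (-0.21 and -0.26). Hmgcs1 (chr13:119690379-119708260, plus strand), an early enzyme of the route, is the list's promoter with a match to the sterol response element letters TCACNCCAC on either strand, so its 250 upstream bases (RefSeq, GRCm38.p6, chr13:119690101-119690350, plus strand) are shown with the match in capitals.
Hmgcs1: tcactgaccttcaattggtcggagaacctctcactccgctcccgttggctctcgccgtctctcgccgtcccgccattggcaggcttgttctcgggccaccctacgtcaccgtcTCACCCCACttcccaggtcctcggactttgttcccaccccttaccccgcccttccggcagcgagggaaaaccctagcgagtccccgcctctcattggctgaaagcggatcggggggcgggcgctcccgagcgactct
It was 1 of 17 promoters of the list at hand (5.88%), against 1.04% of all promoters.

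Over the whole list of 25 cholesterol genes, 2 rose and 14 fell, with a median net of -0.50. The median LPS effect was 0.35 and the median oxLDL effect -0.91, and with the block the oxLDL effect was called lower for 22 of the 25. With equal totals 19 fell and none rose, and without oxLDL+LPS replicate 2 there were 4 rises. The fall of Dhcr7 (chr7:143823145-143848410, plus strand), which reduces 7-dehydrocholesterol to cholesterol, was the largest of the list and came with LPS. It read 1502, 1115 and 1359 in control, 1342, 1045 and 1071 with oxLDL, 277, 118 and 170 with LPS and 236, 117 and 165 with both, a net of -2.98 (SE 0.25, adjusted p = 7.25e-05) from an LPS effect of -2.83. Sqle (-0.93) and Sc5d (-0.98) fell with oxLDL effects of -1.06 and -1.03 and LPS effects of 0.13 and 0.05.

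The other genes raised by LPS and lowered by oxLDL were of mixed function. Hif1a, the hypoxia-inducible factor, read 2033, 2076 and 2003 in control, 9099, 7885 and 9081 with LPS and 5868, 6207 and 6157 with both (net 1.58, SE 0.07). Ikbke, a kinase of the interferon branch (1.49), and Klf7 (1.34) stayed above control as well. Lipg, endothelial lipase, read 6, 8 and 7 in control, 1337, 474 and 1334 with LPS and 90, 247 and 90 with both (4.00, SE 0.42). Olfr56 read 2, 1 and 2 in control, 0 in each oxLDL library, 406, 309 and 511 with LPS and 289, 274 and 281 with both. Its oxLDL effect thus rests in part on values at the floor. Its span (chr11:48978889-49135387, plus strand) contains Tgtp2 (chr11:49057194-49064206, minus strand), so which gene its reads came from is uncertain. Aacs (-0.27), Ddx6 (0.02) and Pank3 (0.10) had nets that were not called, although that of Aacs was called in the limma fit with the replicate block (adjusted p = 0.0962).

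Genes that LPS lowered and oxLDL raised numbered 3 (0.0232%; 177, or 1.37%, with the block), and all 3 had a called net. They are Cd36, Plin2 and Tmem206. The number was 0 to 2 without any 1 of 10 libraries, 8 without LPS replicate 2 and 61 without oxLDL+LPS replicate 2. Cd36 (chr5:17781690-17888801, minus strand), the scavenger receptor that takes up oxLDL and fatty acids, read 40346, 32725 and 36968 in control, 67666, 53483 and 93423 with oxLDL, 26396, 28348 and 27635 with LPS and 59206, 41849 and 64548 with both. Its net of 0.57 (SE 0.19, adjusted p = 0.041) was lost without control replicate 2 (0.135), oxLDL+LPS replicate 1 (0.107) or 3 (0.123), and with equal totals or upper quartiles. Plin2 (chr4:86648386-86670060, minus strand), the coat protein of lipid droplets, read 25596, 24997 and 24922 in control, 36138, 32521 and 33939 with oxLDL, 11498, 12375 and 11151 with LPS and 17964, 16335 and 14208 with both. The doubly treated PMφs thus stood below control (-0.65, SE 0.12, adjusted p = 0.00287) and above LPS. Tmem206, a proton-activated chloride channel, had a net of -1.07.

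**Figure D3:**
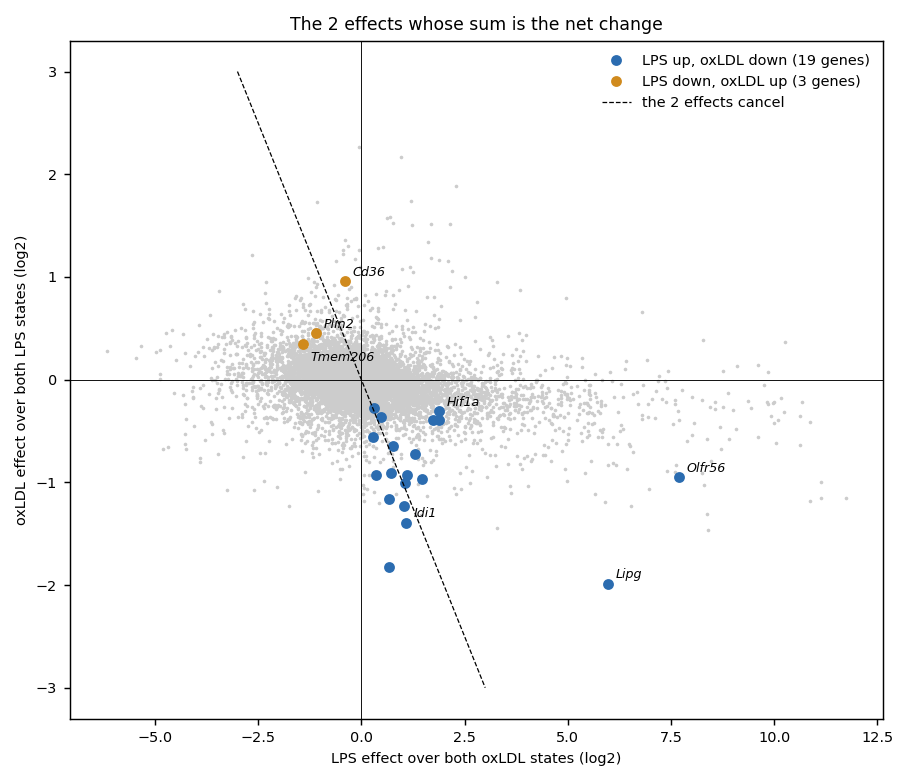
LPS effect (x axis, log2) against oxLDL effect (y axis, log2) for the 12908 genes, grey, with the 19 genes raised by LPS and lowered by oxLDL in blue and the 3 lowered by LPS and raised by oxLDL in orange. The dashed line marks effects that cancel, and 7 of the blue genes lie on its oxLDL side while Lipg (5.98 and -1.99) and Olfr56 lie far to the right.

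The pool block gives larger classes and was chosen for description with these results known. Of the 481 genes raised by LPS and lowered by oxLDL, the net was called higher for 360, lower for 3 and not called for 118. Of the 177 genes in the opposite class it was called higher for 1, lower for 90 and not called for 86. Genes that both stimuli moved the same way were few without the block. Osbpl3, an oxysterol-binding protein relative, was the 1 gene that rose with each (0.00775%; net 2.96), and Hipk2 (-0.95), Pcyt2 (-0.92) and Trp53inp2 (-1.05) were the 3 that fell with each (0.0232%), against 132 (1.02%) and 151 (1.17%) with the block.

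**Figure D4:**
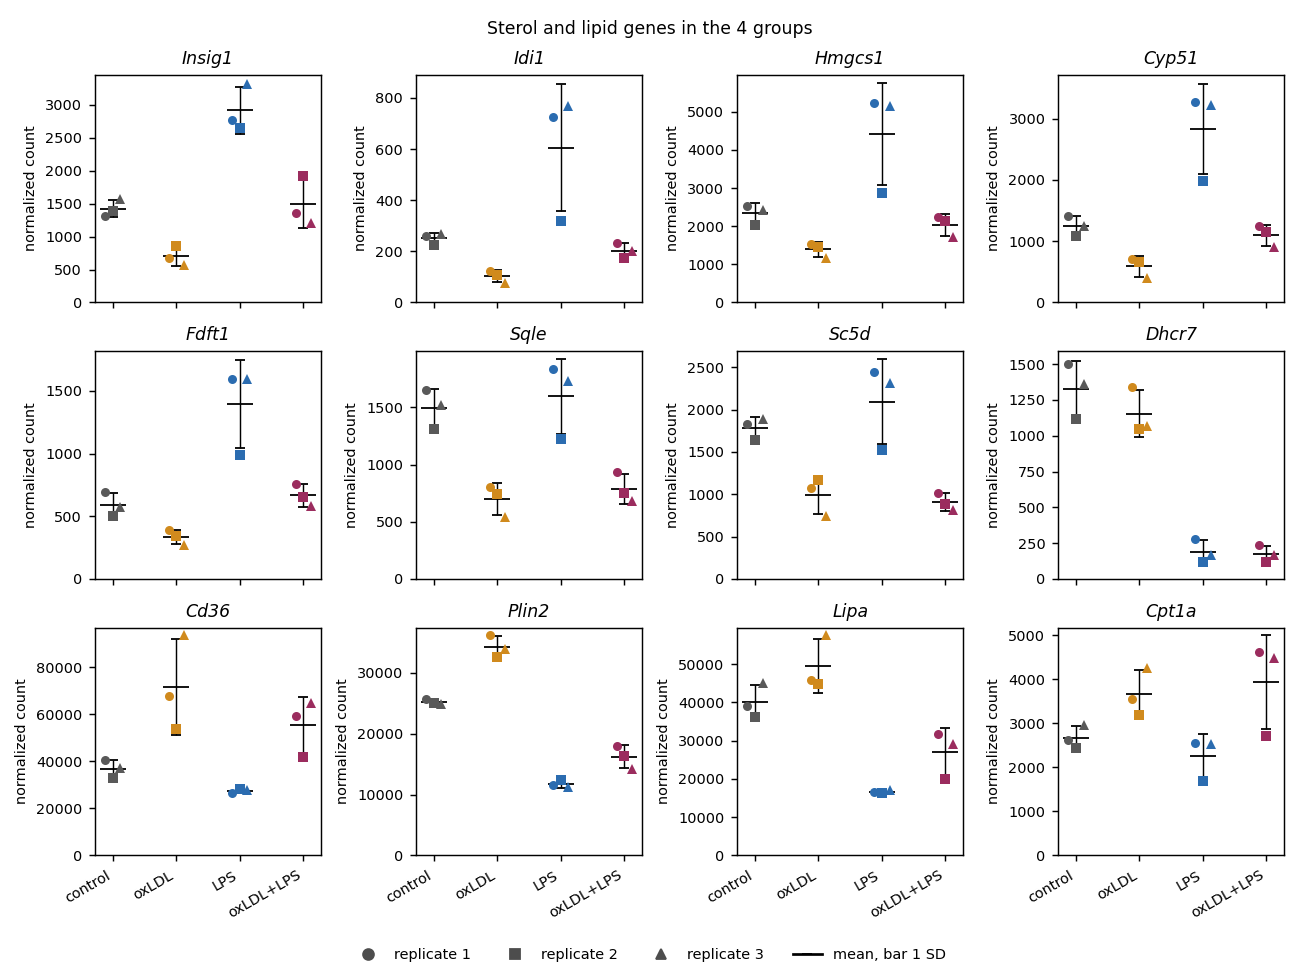
Normalized counts of cholesterol and lipid genes in the 4 groups, 1 panel per gene with its own linear axis from 0, 1 symbol per replicate, and a bar for the mean and 1 SD. For Insig1 the oxLDL+LPS libraries (1210 to 1912) lie around the control libraries (1319 to 1566), whereas for Dhcr7 they share the low level of LPS libraries.

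Falls outnumbered rises in 4 other lists of lipid and lysosomal genes, whereas 28.0% of all genes tested fell and 29.2% rose. None of 17 fatty acid synthesis and desaturation genes rose in limma's test and 7 fell (median -0.33; 7 at an unadjusted p under 0.05; 2 rose with the block, 2 without oxLDL+LPS replicate 2 and 1 without oxLDL+LPS replicate 3), led by Scd2, a stearoyl-CoA desaturase (-2.14), Fads1 (-1.71), Elovl6 (-1.17) and Fasn (-1.11). Acly, which makes cytosolic acetyl-CoA, read 3626, 3903 and 3713 against 3827, 4058 and 3755, a difference of 0.05 (adjusted p = 0.621) that was -0.34 with equal totals. Of 22 genes of lipid droplets, PPAR targets and fatty acid uptake, 6 rose and 11 fell. Pparg (chr6:115360951-115490399, plus strand) read 1232, 1230 and 1284 against 109, 112 and 103 (-3.52, SE 0.09), and its target Fabp4, a fatty acid carrier, fell by 2.45. Acsl1, which activates fatty acids, rose from 1273, 1257 and 1182 to 6918, 6491 and 6854 (2.45, SE 0.07), and Dgat2 (2.31), Lipe (1.15) and Acsl4 (0.62) rose too.

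Of 24 genes of mitochondrial fatty acid oxidation, 4 rose and 13 fell, with 2 rises without control replicate 2, oxLDL+LPS replicate 1 or oxLDL+LPS replicate 3. Crat (-1.26), Hadh (-1.05), Echs1 (-0.97) and Acaa2, the last thiolase of the cycle (691, 590 and 651 against 390, 312 and 327; -0.91), fell. Cpt1a, the gate of fatty acid entry, read 2613, 2447 and 2974 in control and 4631, 2705 and 4483 with both (0.52, adjusted p = 0.073), and lost its call without control replicate 1 (0.159) or 2 (0.19) and without oxLDL+LPS replicate 1 (0.194) or 3 (0.201). Of 32 lysosomal genes 4 rose and 15 fell (median -0.34; 2 rose without replicate 1 of both groups). Lipa, the acid lipase that frees cholesterol from LDL, read 39089, 36212 and 44927 in control, 16595, 16244 and 17048 with LPS and 31830, 20095 and 29239 with both, a net of -0.59 (adjusted p = 0.0386; 0.119 without control replicate 3). Atp6v0d2 (-1.78), Tfeb, a lysosome regulator (-1.37), Gusb (-0.91) and Npc1 (-0.86) fell.

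Sterol export and uptake changed gene by gene. Of 17 efflux and LXR genes, 6 rose and 6 fell (35.3% each, against 29.2% and 28.0% of all genes tested). Abca1, which loads cholesterol onto apolipoprotein A-I, rose by 1.67 (SE 0.23), and Abcg1, which serves HDL, fell by 1.40 (SE 0.10). Ch25h, which makes 25-hydroxycholesterol, read 16, 17 and 2 against 226, 1043 and 224 (5.28, SE 0.85). Soat1, which esterifies cholesterol for storage, fell by 1.74, and Nceh1, which hydrolyses the esters, by 2.14. Of 12 scavenger receptors for modified LDL, 6 rose and 3 fell, and their median of 0.23 was -0.16 with equal totals. Marco (53, 75 and 51 against 1797, 640 and 2184) rose by 4.51, Olr1 by 4.38, Cxcl16 by 2.67, Scarf1 by 2.65 and Msr1, scavenger receptor A, by 2.26. Scarb1, the HDL receptor, fell by 0.90, Stab1 by 0.85 and Colec12 by 0.82. Of 19 efferocytosis genes, which serve the clearance of dying cells, 5 rose (26.3%, near the 29.2% of all genes) and 10 fell (52.6%). Timd4 (3.80) and Axl (2.94) stood at the top and Itgb3 (-2.88) and Cd300a (-2.13) at the bottom.

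Among NRF2 targets the median oxLDL effect was 0.80 and the median LPS effect 0.14. Of 27 tested, 14 rose and 13 did not pass (median net 0.97), with 18 rises in the fit with the replicate block. Prdx1 (chr4:116685544-116700822, plus strand), a peroxiredoxin, read 20180, 11072 and 22304 in control, 35541, 18103 and 88225 with oxLDL, 63702, 26801 and 57575 with LPS and 212150, 48141 and 222170 with both (2.94, SE 0.60, adjusted p = 0.00521). Replicate 2 was lowest in each group. Slc7a11, the cystine importer, rose by 5.74, Sqstm1 by 2.57 and Txnrd1, thioredoxin reductase, by 2.38. Hmox1, Gclm and Nqo1, chosen after their values were seen, had the same low replicate 2 in the oxLDL+LPS group. Hmox1, heme oxygenase, read 55988, 12622 and 43842 with both against 6901, 6421 and 6087 in control (2.28), Gclm 10850, 1859 and 11179 against 1750, 670 and 1624 (2.29), and Nqo1 328, 36 and 255 against 21, 26 and 44 (2.29, adjusted p = 0.0455), so that Nqo1 overlapped between the groups. The number of rises was 22 without oxLDL+LPS replicate 2, 8 without control replicate 2, and 9 and 8 without oxLDL+LPS replicates 1 and 3, and 7 without replicate 1 of both groups. Nfe2l2, which encodes NRF2, rose by 0.92 (SE 0.13). The Prdx1 promoter (RefSeq, GRCm38.p6, chr4:116685349-116685598, plus strand) is shown for its match, in capitals, to the antioxidant response element TGACNNNGC on either strand.
Prdx1: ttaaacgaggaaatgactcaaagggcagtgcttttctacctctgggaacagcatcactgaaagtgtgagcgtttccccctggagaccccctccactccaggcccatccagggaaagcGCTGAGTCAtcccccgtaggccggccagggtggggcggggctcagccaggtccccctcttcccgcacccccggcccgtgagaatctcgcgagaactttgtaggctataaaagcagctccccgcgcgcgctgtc
The motif stood in 4 of 26 NRF2 promoters (15.4%) and in 10.1% of all promoters. These shares are near each other.

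**Figure D5:**
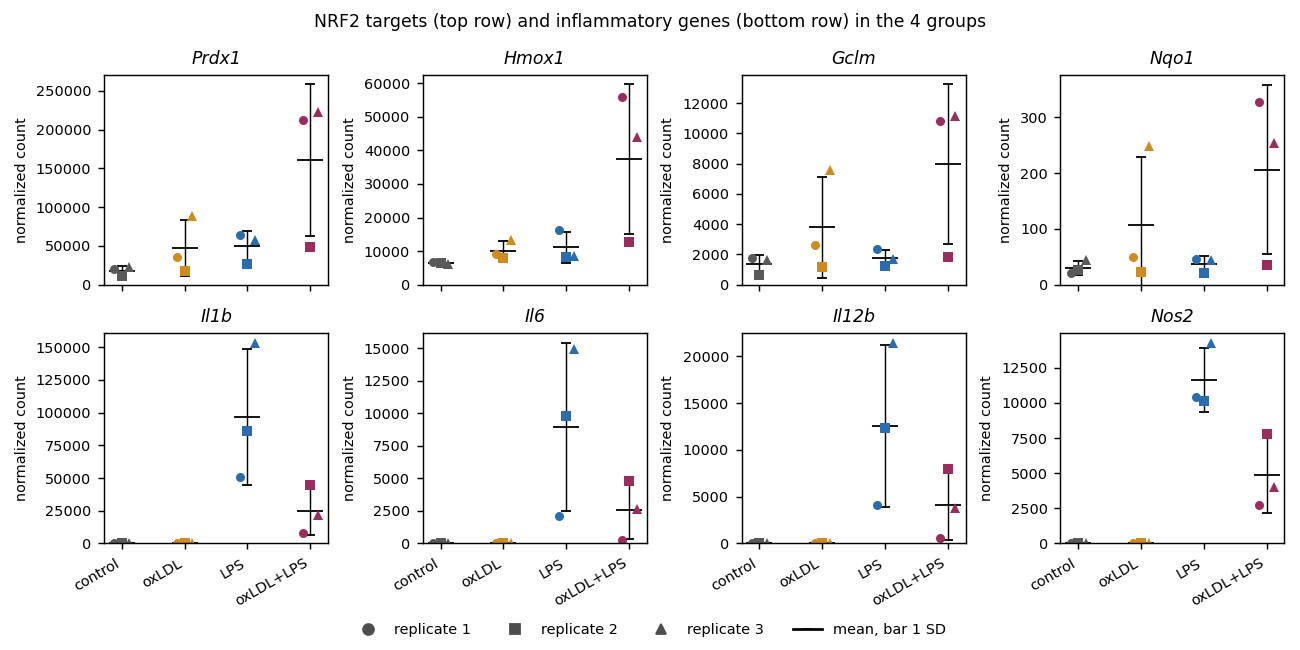
Normalized counts of 4 NRF2 targets (top) and 4 inflammatory genes (bottom) in the 4 groups, each panel with its own linear axis from 0 (bars passing below 0 are cut there), 1 symbol per replicate, and a bar for the mean and 1 SD. In the top row replicate 2 of oxLDL+LPS (Prdx1 48141) lies far under replicates 1 and 3, and in the bottom row it is the highest of its group.

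The doubly treated cell was also set beside the cell given LPS alone, a comparison that shares the oxLDL+LPS libraries with the one above. Without the pool block 29 genes were called (0.225%), and with it 1438 (11.1%), 965 lower and 473 higher in oxLDL+LPS. Il1b stood at 51068, 85645 and 152940 with LPS, and its oxLDL+LPS values were lower in every replicate, as were those of Il6 (2135, 9776 and 14906 with LPS), Il12b (4078, 12312 and 21389) and Nos2 (10411, 10173 and 14245). The oxLDL effect over both LPS states also takes in the control and oxLDL libraries. It was not called for any of these 4 without the block (limma adjusted p = 0.418, 0.634, 0.627 and 0.288). With the block it was called for Nos2 (adjusted p = 0.0455). Against LPS alone and with the block, 19 of 20 inflammatory cytokines, 15 of 22 chemokines and 11 of 16 NF-kB genes were lower and 0 higher. Among the 27 NRF2 targets 22 were higher and 0 lower.

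Of all genes tested 29.2% rose and 28.0% fell, and some lists of energy metabolism had shares near these. Of 22 genes of glycolysis and lactate export 9 rose and 3 fell (median 0.23, but -0.16 with 6 rises and 9 falls with equal totals). Hk2, hexokinase 2, rose by 1.26, Pfkfb3 by 1.10, Pfkp by 1.06 and Slc2a1, a glucose transporter, by 0.88, and Slc2a3 (-3.35), Aldoc (-1.48) and Pfkm (-0.75) fell. Of 21 HIF-1α genes 7 rose (33.3%) and 8 fell (38.1%; 5 genes without control replicate 1), with Adm (2.28) and P4ha1 (1.57) higher and Ankrd37 (-1.87), Ndrg1 (-1.63), Vegfa (-1.42) and Mxi1 (-1.41) lower. Of 23 genes of the TCA cycle and itaconate, 8 rose (34.8%) and 6 fell (26.1%), shares near the background (1 and 15 with equal totals). Idh1, the cytosolic isocitrate dehydrogenase, read 4746, 4710 and 6040 against 1535, 574 and 933 (-2.45, SE 0.32), and Cs, citrate synthase, rose by 0.58. Of 66 nuclear-encoded respiratory chain genes, 24 rose and 4 fell with a median of 0.21, whereas with equal totals none rose and 28 fell. Without control replicate 1, control replicate 3 or oxLDL+LPS replicate 3 the counts were 17 and 2, 25 and 0, and 17 and 1, and without replicate 1 of both groups 12 and 1. Of 11 mitochondrially encoded transcripts limma called 0, with 0 at an unadjusted p under 0.05, and 5 fell with equal totals and 2 without oxLDL+LPS replicate 2.

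Of 26 AKT, PI3K and mTOR genes tested, 8 rose (30.8%) and 6 fell (23.1%), shares near the 29.2% and 28.0% of all genes (median 0.10; 4 and 14 with equal totals). Akt1 fell from 5643, 5738 and 5518 to 4221, 3908 and 4018 (-0.48, SE 0.07), and Akt2 had a difference of 0.24 (adjusted p = 0.106, but 0.0873 and called with the replicate block; -0.15 with equal totals). Pik3ap1 (1.58), Pik3cd (1.28) and Rictor (1.00) rose, and Sesn1 (-2.64) and Inpp5d (-1.49) fell. Tbk1, the kinase upstream of interferon factors, rose by 1.40 (SE 0.09). Hprt, a housekeeping gene, had a difference of 0.15 (adjusted p = 0.555), which was -0.25 with equal totals.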

How the data were processed

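The 12 libraries were made from poly(A) RNA. The authors used Trimmomatic (0.32), STAR (2.5.1b) on mm10 (GRCm38) and featureCounts on exons of GENCODE genes, and DESeq2 for their comparisons. The deposited values are a signal (each library's counts over a single scale factor, then rounded to whole numbers), called the normalized count here. The reads were not recovered from it, so tests for raw counts, which the comparison had been laid out for, were not run. Whether counting used the strand is not given in the sources used here, so overlapping genes and members of gene families are uncertain. A spreadsheet had turned 25 symbols into dates (17 of the genes tested, at most 0.165% of a library), and these were not assigned.

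Groups were compared with limma (3.58.1, R 4.3.3), lmFit and eBayes with a trend, on log2 of the value plus 1, with an adjusted p under 0.1 as threshold. The comparison used its 6 libraries. The LPS and oxLDL effects and their interaction used all 12. The fit was tested on simulated data. An exact permutation test of 3 against 3 cannot go below p = 0.1.

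Members and lists (35 pathway and 11 marker lists, 837 of 839 genes matched) were chosen with earlier results of these data known. Named genes were, by rule, the 12 largest called rises and falls with groups that do not overlap and a mean of at least 200 in the higher group, up to 12 genes of each opposed class, up to 4 called genes per list and direction, and genes the study names. Positions are from GENCODE for GRCm38. Promoters were read from RefSeq. Some genes that the rule names are not reported here.

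The labels number replicates 1 to 3, and the paper's methods describe pools divided among groups. Deviations from the group means correlated at 0.261, 0.466 and 0.573 between control and oxLDL+LPS libraries of numbers 1, 2 and 3, at 0.637 to 0.682 between control and oxLDL, and at 0.605 to 0.642 between LPS and oxLDL+LPS, so the numbers were taken as a block. Number 1 did not hold the same mix of cells across LPS states. Its Y-linked transcripts summed to 3138 and 3009 in control and oxLDL and to 1023 and 1004 in LPS and oxLDL+LPS libraries. Xist read 1 and 2 in control and oxLDL and 6331 and 3812 in LPS and oxLDL+LPS libraries, so number 1 was not 1 pool divided among all groups. The block between control and oxLDL+LPS therefore rests on the correlations and joins unlike pools for number 1. That for the oxLDL effect stays within an LPS state. Block values are given where they move a list's count by over 1.5 times or the call of a named gene. Alternatives covered scaling, pseudocount, filter, variance trend, all 12 libraries in the fit, the block and each library left out.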

Additional observations from a re-analysis of the deposited data

How the results depend on the processing

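Against 7382 genes called between control and oxLDL+LPS PMφs with the deposited scaling and no block, other fits called 8243 with the replicate block, 8712 with equal library totals (2127 higher, 6585 lower), 7836 with equal upper quartiles, and 6334 to 7282 with 1 library left out (3321 to 3749 higher, 3013 to 3533 lower). Without replicate 1 of both groups, an alternative chosen after seeing the data, 6206 were called, or 7646 with the replicate block. The oxLDL effect (35 genes) was called for 1200 with the replicate block, 2204 with a random replicate block and 12 to 242 with 1 library left out. The LPS effect (9188 genes) ranged from 8825 to 9207 with 1 library left out. Genes higher with LPS and lower with oxLDL (19) numbered 481 with the replicate block, 775 with the random block, 11 with equal totals and 6 to 73 with 1 library left out. The opposite class (3) numbered 177, 468, 3 and 0 to 61. Of 63 named genes over all alternatives, 1000 values kept direction and side of the threshold, 29 lost the call, 14 gained it and 16 changed sign, none of them of a gene called with the deposited scaling. Those were, with equal totals and equal upper quartiles, Insig1 (-0.34 and -0.16), Fdft1 (-0.21 and -0.031), Srebf2 (-0.26 and -0.081), Hprt (-0.25 and -0.065) and Acly (-0.34 and -0.16), Akt2 with equal totals (-0.15), and, with 1 library left out, Insig1 (-0.14 to 0.19) and Ccl8 (-0.27 to 0.31). The cause was not tested. The block changed the call of Idi1 (adjusted p = 0.0654) and Akt2 (0.0873) among them. The sign of a change smaller than the shift of the median between scalings (-0.01 and -0.40) rests on the scaling. Pools limit the replicates to 3 per group.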

Other observations

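Further lists of genes are described by counts and medians. Over all genes the median was -0.01, or -0.40 with equal library totals, and 29.2% rose and 28.0% fell. Between control and oxLDL+LPS PMφs the lists changed as follows. Of 27 AP-1 and EGR factors and MAPK phosphatases, 17 rose and 4 fell (median 0.79; 2 falls without control replicate 1). Spred1, an inhibitor of Ras signalling, rose from 839, 670 and 702 to 7398, 7673 and 7775 (3.37), and Batf (2.96), Ier3 (2.92) and Maff (2.84) rose, while the immediate early factors Jun (4855, 5185 and 4433 against 2499, 1833 and 1769; -1.26) and Egr1 (-0.94) fell. Of 21 macrophage lineage transcription factors, 12 rose and 4 fell (median 0.46; 9 and 6 with a median of 0.06 with equal totals). Cebpa, a factor of myeloid differentiation, read 6642, 6512 and 6237 against 1901, 1072 and 1749 (-2.08), and Cebpb rose by 1.77. Of 19 enzymes of arginine, nitric oxide and prostaglandins, 11 rose and 4 fell (median 0.72). Ptgs2, cyclooxygenase 2, rose from 50, 60 and 69 to 2888, 21485 and 14644 (7.33), and Ptges, the prostaglandin E synthase, by 5.42, while Hpgds, the prostaglandin D synthase of blood cells, fell by 2.60 and Ptgs1 by 1.68. The oxLDL+LPS libraries thus had more transcript of the inducible prostaglandin E route and less of the D synthase.

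Of 20 metalloproteinase and plasminogen genes, 11 rose and 3 fell (median 1.29), with Serpinb2 (4.16), F10, coagulation factor X (3.83), and Mmp13 (3.75) higher and Thbd, thrombomodulin, lower (692, 794 and 734 against 159, 98 and 44; -3.05). Of 18 complement and Fc receptor genes, 9 rose and 3 fell (median 0.59; 6 and 6 with equal totals), with Cfb, complement factor B (6, 6 and 4 against 582, 566 and 511), and C3 (2.09) higher and C3ar1, the receptor of its fragment, lower (-1.09). Of 18 genes of metallothioneins, iron and heme, 11 rose and 1, Blvra, fell (-0.43; median 0.93; 3 fell with the replicate block and 2 without control replicate 2), with Lcn2, which binds bacterial siderophores, at 13, 15 and 15 against 1358, 766 and 1267 (6.16). Of 31 ribosome biogenesis genes, 23 rose (median 0.47; 11 rose and 5 fell with equal totals), led by Wdr43 (1.84) and Rrs1 (1.68). Of 25 genes of the unfolded protein and ATF4 response, 8 rose (32.0%) and 5 fell (20.0%), against 29.2% and 28.0% of all genes (median 0.14, or -0.25 with equal totals; 5 rises without control replicate 3 or oxLDL+LPS replicate 2). The serine and asparagine enzymes Asns (286, 455 and 126 against 462, 3058 and 661), Psat1 (1.78) and Phgdh (1.69) rose, with replicate 2 far above the others for Asns, and Eif2ak3 (-1.11) and Atf6 (-0.99), 2 sensors of unfolded protein, fell.

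Of 31 proliferation genes, 3 rose (9.68%) and 7 fell (22.6%), against 29.2% and 28.0% of all genes tested (median -0.45). With the replicate block 4 rose and 19 fell, against 4132 and 4111 of the 12908 genes tested. The counts were 3 and 12 with the block and without replicate 1 of both groups. In the fit with no block they were 2 and 4 without control replicate 1 or without control replicate 2, and 2 and 12 without oxLDL+LPS replicate 2. Mki67 read 246, 362 and 169 in control and 426, 1242 and 732 with both (1.56). Ccne1, a cyclin of the entry into S phase (2.11), and Tyms, thymidylate synthase (0.61), rose as well, and Mcm2, of the replicative helicase, fell by 0.88 and Aurkb, a mitotic kinase, by 0.96. On a panel of 20 genes taken from PCR and chromatin assays of such cells, 15 rose and 3 fell, Acaa2 and Lipa among them (1 fell without control replicate 3). That panel was picked with these libraries in view, so its direction is not independent evidence.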
